A study of Mus musculus with 45 samples.

Results

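The proteases that cut extracellular matrix, shed proteins from the cell surface or work in lysosomes were examined in cell lines from mouse mammary carcinomas. The set is a list of 37 named genes, and all 37 were found among the 54838 genes of the count table. It holds 14 matrix metalloproteinases (*Mmp*), 7 membrane-anchored disintegrin metalloproteinases (*Adam*), 4 secreted relatives with thrombospondin motifs (*Adamts*), the plasminogen activators *Plau* and *Plat* with the urokinase receptor *Plaur*, 7 cathepsins, and the cell-surface serine proteases *St14* (matriptase) and *Hpn* (hepsin).

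Metalloproteinases are made as inactive proforms and are held in check by tissue inhibitors (TIMPs), while the membrane-type MMPs and the ADAMs act at the cell surface, where ADAMs release growth factors and receptor domains. Urokinase and tissue plasminogen activator turn plasminogen into plasmin, which degrades fibrin and activates other proteases. Cathepsins work mainly in lysosomes, and matriptase is an epithelial protease that is restrained by the Kunitz inhibitors *Spint1* and *Spint2*.

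RNA was sequenced from 15 *PyMT*+ cell lines, which carry the polyoma middle T antigen under the MMTV promoter that drives it in mammary epithelium, from FVB/N mice. Of these, 2 were parental and came from mammary gland tumours (YEJG and YEJH), 6 came from fat pad tumours (YEJG-FP and YEJH-FP1 to YEJH-FP5) and 7 from lung (YEJG-M1, YEJG-M2 and YEJH-M1 to YEJH-M5). The lung lines were made from micrometastases after the primary tumour had been resected, and are labelled whole lung except YEJH-M3, which is labelled lung metastases. The lines differ in origin and site alone as far as the labels go, with no treatment named, and the cells had been plated for 24 h before lysis. Each line was sequenced in 3 repeat libraries. YEJG gave 3 derived lines and YEJH gave 10, so YEJG supplied 1 of the 6 fat pad lines and 2 of the 7 lung lines, and each origin is 1 parental line.

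Depth on genes was 9723860 to 16943900 reads for a library and 38265130 to 45958820 for a line. Levels are given as CPM, read counts scaled to a common library size, as the mean of the 3 libraries of a line, and the line was the unit of replication except in the limma alternatives on separate libraries. Library names start with 1 of 2 prefixes, borne by 22 libraries (prefix A here) and 23 libraries (prefix B), and what the prefix stands for is not stated. Libraries of different lines with the same prefix deviated together (mean r = 0.610 across genes), but every line had libraries of both. One library of YEJG-M1 bears the name of another line, YEJH-M1, in its description and was placed by its title. Of all lines its levels correlated best with the other YEJG-M1 libraries (r = 0.990, beside 0.980 for YEJG-M2 and 0.945 for YEJH-M1). Of the luminal markers, *Krt8*, *Krt18*, *Epcam* and *Cdh1* were expressed in every line and *Elf5* was at or near 0 (0 to 0.173 CPM). Of the 8 fibroblast markers 5 reached 1 CPM in some line and *Lum* and *Thy1* had no read; of the 8 leukocyte markers 2 reached it and *Itgam* and *Cd3e* had no read. None of the 4 lung epithelial markers reached it, and *Sftpc*, *Sftpb* and *Nkx2-1* had no read.

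Lysosomal cathepsins, urokinase and matriptase were the most abundant proteases of these lines. Per kilobase of canonical transcript, *Ctsd* (cathepsin D, an aspartic protease) averaged 246 CPM over the 15 lines, *Plau* (urokinase) 237, *Ctsl* (cathepsin L) 122 and *St14* 81.7. *Plaur*, *Adamts1* (which cleaves versican and aggrecan) and *Mmp14* (MT1-MMP, a collagenase anchored in the membrane that activates pro-MMP2) followed at 77.3, 68.9 and 68.3 CPM per kb. The annotated canonical transcript of *Ctsl* has 5908 bases, and its level per kb rests on that length. At the other end, *Mmp2* (gelatinase A), *Mmp12*, *Mmp17*, *Mmp19*, *Hpn* and *Adam19* averaged under 0.5 CPM, with 0 to 0.318 CPM for *Mmp2* over the 15 lines. Averaged over lines, 29 of the 37 genes reached 1 CPM, 21 reached 10 CPM and 12 reached 100 CPM. Among the sheddases, *Adam17*, which releases TNF and ligands of the EGF receptor, was the most even of all 37 genes, at 97.7 to 119.7 CPM, a 1.22-fold range. Plasminogen itself (*Plg*) was read in no line except YEJH-FP1, at 0.0556 CPM.

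**Figure D1:**
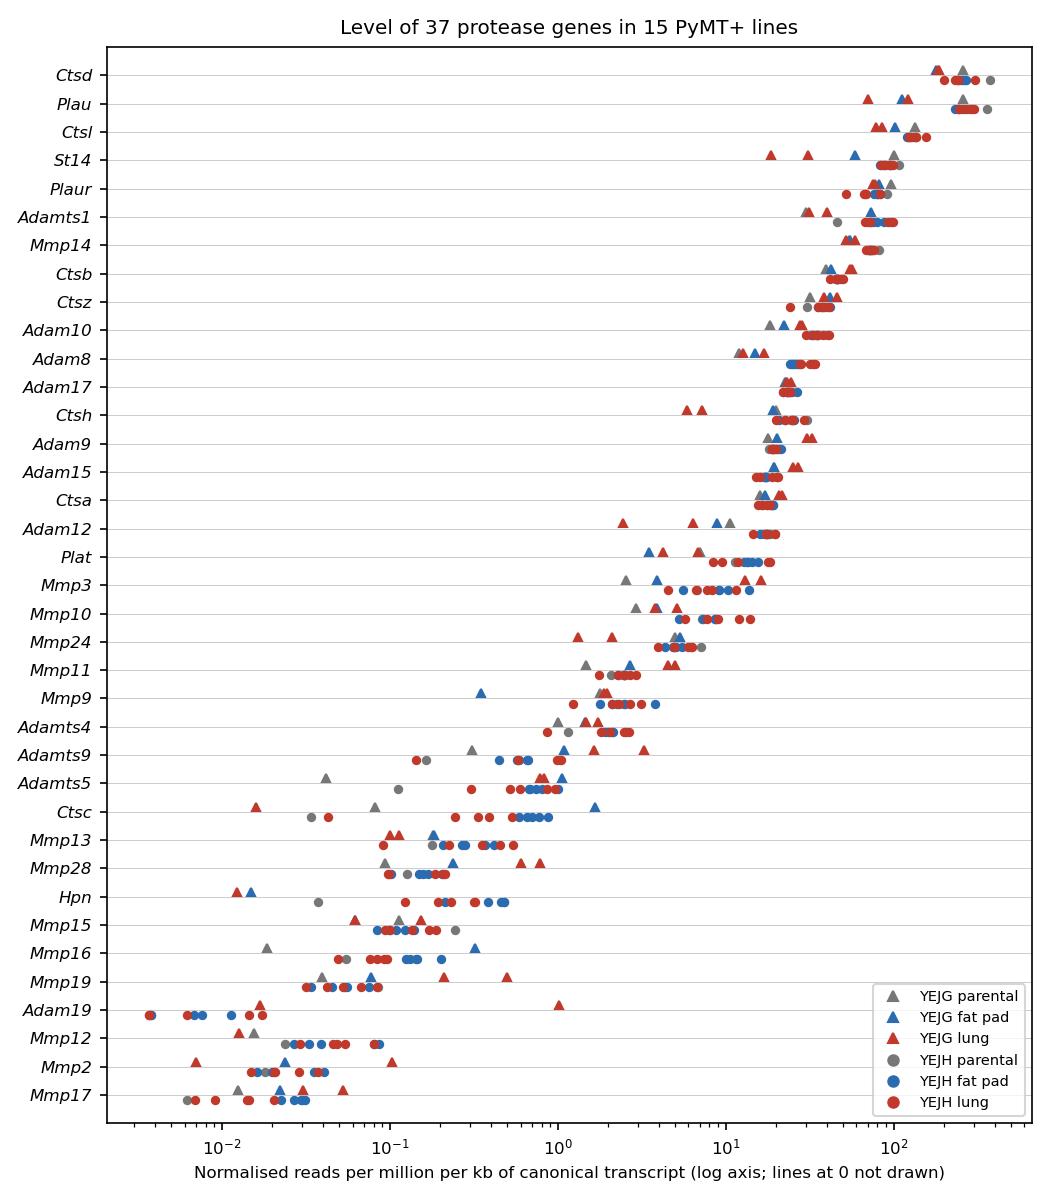
Level of each protease gene in each of the 15 lines, in CPM per kb of canonical transcript on a log axis, ordered by the mean over lines; triangles are YEJG lines and circles YEJH lines, coloured by site, and lines at 0 are not drawn. *Ctsd*, *Plau*, *Ctsl* and *St14* lead, and the YEJG lung lines lie to the left of the other lines for *St14*, *Ctsh* and *Adam12*.

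*Mmp13*, *Mmp12*, *Mmp3* and *Mmp10* lie in this order in one cluster on chromosome 9 (GRCm39, plus strand), with *Mmp13* at 7272514 to 7283331 and *Mmp10* at 7502353 to 7510241. Collagenase-3, macrophage elastase and the stromelysins are their products, and AP-1, a dimer of Fos and Jun proteins, is a known regulator of several of them. RefSeq promoter sequences (GRCm38.p6, 250 bases before to 50 after the gene start) were at hand for 23 of the 37 genes. The AP-1 site TGAGTCA, searched on both strands (TGACTCA on the other), stood in a promoter of 6 of these 23 genes, and in 5.95% of all 27025 genes of the promoter table. The stretches before the start of the 4 cluster genes and of *Plaur* are shown, because the 5 sites closest to a start are in them and the levels of these genes are compared with AP-1 subunits further on; each is read 5′ to 3′ on the plus strand up to the base before the start, with the site in capitals. For *Mmp12* it is one of its entries.
*Mmp13*, chr9:7272439-7272513: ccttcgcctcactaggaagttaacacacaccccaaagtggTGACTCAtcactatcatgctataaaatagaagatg
*Mmp12*, chr9:7347290-7347373: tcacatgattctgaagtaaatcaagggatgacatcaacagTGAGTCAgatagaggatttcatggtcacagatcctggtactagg
*Mmp3*, chr9:7445736-7445821: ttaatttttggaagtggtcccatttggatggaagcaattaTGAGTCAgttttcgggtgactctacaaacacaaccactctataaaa
*Mmp10*, chr9:7502239-7502341: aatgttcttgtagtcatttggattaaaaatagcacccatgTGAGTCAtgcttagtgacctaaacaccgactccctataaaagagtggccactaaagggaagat
*Plaur*, chr7:24462374-24462482: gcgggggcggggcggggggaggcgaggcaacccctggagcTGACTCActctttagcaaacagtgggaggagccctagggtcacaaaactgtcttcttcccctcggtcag

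The site began 35 bases before the start in *Mmp13*, 44 in *Mmp12*, 46 in *Mmp3*, 63 in *Mmp10* and 69 in *Plaur*. All 4 genes of the set that lie in the cluster thus carried it within 70 bases. The sixth gene, *Adam19*, had it 131 bases before one of its starts. A match of letters does not show that a factor binds there. *Mmp3* and *Mmp10* share a stretch of at least 50 bases in their transcripts, so reads from that stretch could be split between them.

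The first question was whether these proteases differ between cells that had grown in the fat pad and cells that had colonised the lung. No protease gene differed between the 7 lung lines and the 6 fat pad lines at an adjusted p of 0.05 (edgeR's quasi-likelihood test, Benjamini-Hochberg over 15056 genes). Of the 37 genes, 33 passed the expression filter, 0 of them were called and 3 had an unadjusted p under 0.05, against 784 of all genes, and 0.0% of all genes tested were called. DESeq2's Wald test also called 0 of the protease genes, beside 22 of 15056 genes in all. So did edgeR within prefix A, with 1 of 12980 genes called in all, and within prefix B, with 0 of 13693. Parental origin was not a term of the main test. With origin as a covariate edgeR called 0 of 34 genes of the set and 3 of all 15815 genes. An unadjusted p under 0.05 was then found for 5 genes of the set and for 1358 of all genes. The median log2 difference (lung minus fat pad) over the 33 genes was -0.047, beside 0.0093 over all genes. The 3 genes with the smallest p were *Ctsc*, *Mmp16* and *Plaur*.

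*Ctsc* encodes cathepsin C, which activates serine proteases of leukocyte granules, and *Mmp16* encodes the membrane-type MT3-MMP. Both were low everywhere. *Ctsc* was at 2.07, 2.35, 1.76, 1.88 and 1.59 CPM in YEJH-FP1 to YEJH-FP5 and at 0.115, 0.901, 1.43, 1.05 and 0.656 in YEJH-M1 to YEJH-M5. In the YEJG lines it was at 4.51 CPM in YEJG-FP, 0 in YEJG-M1 and 0.0431 in YEJG-M2. *Mmp16* was at 1.45, 1.53, 1.67, 1.66 and 2.34 CPM in the YEJH fat pad lines and at 0.569, 0.966, 1.11, 0.884 and 1.07 in the YEJH lung lines. It reached 3.71 CPM in YEJG-FP and had no read in YEJG-M1 or YEJG-M2. For both genes every fat pad line was above every lung line, as was so for 38 of all 15056 genes in either direction (0.252%, with 0.153% lower and 0.0996% higher in lung), and the parental lines (0.220 and 0.0914 CPM for *Ctsc*, 0.215 and 0.634 for *Mmp16*) were as low as the lung lines. The test did not call either (log2 fold change -1.98, SE 0.68, adjusted p = 0.909 for *Ctsc*; log2 fold change -1.66, SE 0.67, adjusted p = 0.909 for *Mmp16*), nor *Plaur* (log2 fold change -0.20, SE 0.085, adjusted p = 0.909). The libraries of the 13 derived lines were also kept apart in limma, with a correlation between libraries of a line. There 2 genes of the set, *Ctsc* and *Mmp16*, were called, as were 77 of all 12950 genes in that fit.

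Within the YEJH lines, 5 from the fat pad against 5 from lung, 32 genes of the set were tested and 0 were called. An unadjusted p under 0.05 was found for 6 of them and for 1131 of all 14990 genes. In this comparison 0.0467% of all genes were called, 0.00667% higher and 0.04% lower. Neither *Mmp16* nor *Ctsc* was called (log2 fold change -0.93, SE 0.19, adjusted p = 0.154 for *Mmp16*; log2 fold change -1.22, SE 0.38, adjusted p = 0.377 for *Ctsc*). *Adam8*, a metalloproteinase-disintegrin best known from leukocytes, was at 80.1, 76.9, 83.1, 78.5 and 75.5 CPM in the fat pad lines and at 99, 103, 86, 106 and 87.1 in the lung lines. Each lung line was thus above each fat pad line by a small margin (log2 fold change 0.27, SE 0.062, adjusted p = 0.195). Groups did not overlap for these 3 genes of the 32, and for 1.98% of all genes (1.15% lower and 0.827% higher in lung). DESeq2's Wald test called *Mmp16* and *Adam8*, among 153 of 14990 genes, and edgeR called *Adam8* when YEJH-M5 was left out, among 110 of 15134 genes. The abundant proteases were close between sites, with log2 differences of -0.023 ± 0.055 (SE) for *St14*, -0.012 ± 0.033 for *Mmp14*, 0.0036 ± 0.044 for *Ctsb* and 0.14 ± 0.064 for *Plau*.

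The protease set differed between the lines derived from YEJG and those derived from YEJH. All lines of a group descend from the same parental line, so the p-values measure the spread among derived lines. An effect of origin apart from these particular parental lines was not tested. Of the 34 genes tested, 16 were lower and 6 higher in the 3 YEJG-derived lines than in the 10 YEJH-derived lines (edgeR with site as a covariate), and 12 were not called. Lower genes were *St14* and *Hpn*, both plasminogen activators, 3 of the 7 cathepsins, *Adam8*, *Adam10* and *Adam12*, *Adamts1*, and 5 MMPs; higher genes were *Mmp11*, *Mmp19*, *Mmp28*, *Adam9*, *Adam15* and *Adamts9*. The background was high, since 40.8% of 15815 genes were called, 21.6% lower and 19.2% higher. In the protease set 47.1% of those tested were lower and 17.6% higher. With library totals in place of TMM the split over all genes turned to 18% lower and 24.2% higher. The set's median log2 difference (YEJG minus YEJH) was -0.47, beside 0.0032 over all genes. In prefix A libraries alone 19 of 32 genes were called, beside 5405 of 13478 genes in all. In prefix B libraries alone 20 of 33 were called, beside 5594 of 14418. YEJG-derived and YEJH-derived lines did not overlap for 15 genes, 13 lower and 2 higher, and for 24.2% of all genes (12.8% lower and 11.4% higher). In bulk RNA fewer cells of a type and less RNA per cell cannot be told apart.

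Both membrane serine proteases were lower. *St14* (chromosome 9, 31000698 to 31043218, GRCm39) was at 336 CPM in parental YEJG, 197 in YEJG-FP, 61.9 in YEJG-M1 and 102 in YEJG-M2, against 357 in parental YEJH. In the 10 YEJH-derived lines it ranged from 277 to 328 CPM with a median of 304. The 2 parental lines were thus alike, YEJG-FP was below all YEJH lines and the YEJG lung lines were the lowest (log2 fold change -1.36, SE 0.21, adjusted p = 3.19e-04). *Hpn*, hepsin, had 2 reads in all over the 3 YEJG-derived lines and 239 over the 10 YEJH-derived lines, where it ranged from 0.217 to 0.850 CPM with a median of 0.563. The ratio per line depth was 35.7-fold (95% interval 9.77 to 296), an interval that covers counting error only, with an adjusted p of 5.24e-05.

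Both plasminogen activators were lower in YEJG-derived lines, while the urokinase receptor was not called. *Plau* was at 609.8 CPM in parental YEJG, 262 in YEJG-FP, 164 in YEJG-M1 and 287 in YEJG-M2. Parental YEJH had 840.0 CPM, and the YEJH-derived lines ranged from 547 to 703 CPM with a median of 603, so every YEJG-derived line was below every YEJH line (log2 fold change -1.40, SE 0.14, adjusted p = 2.10e-05). *Plat*, tissue plasminogen activator, was at 18.2 CPM in parental YEJG, 8.99 in YEJG-FP, 17.7 in YEJG-M1 and 11 in YEJG-M2, while the YEJH-derived lines ranged from 21.8 to 47.6 CPM with a median of 35 (log2 fold change -1.50, SE 0.27, adjusted p = 7.82e-04). *Plaur* was at 116 to 126 CPM in YEJG-derived and 80.3 to 128 in YEJH-derived lines (log2 fold change 0.11, SE 0.093, adjusted p = 0.378).

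Among the ADAMs, *Adam12* (meltrin alpha) was at 81.2 CPM in parental YEJG, 68.5 in YEJG-FP, 18.7 in YEJG-M1 and 48.9 in YEJG-M2. The YEJH-derived lines ranged from 112 to 150.3 CPM with a median of 134, and again no line crossed (log2 fold change -1.59, SE 0.26, adjusted p = 4.34e-04). *Adam8* was at 39.7 to 52.5 CPM against 75.5 to 106, and *Adam10*, the main sheddase of Notch receptors, at 104 to 132 against 139 to 191. Their log2 differences were -0.97 ± 0.10 (SE) and -0.44 ± 0.085. *Adam9* went the other way, at 84.4 CPM in YEJG-FP but 136 and 127 in the YEJG lung lines, with 78.2 to 89.1 in YEJH-derived lines (log2 fold change 0.46, SE 0.11, adjusted p = 0.00405). *Adam15* was higher too (log2 0.39 ± 0.10), and *Adam17* did not pass (-0.03 ± 0.052). *Adam19* was a singular case, with 295 reads in YEJG-M2 and at most 5 in any other line, and it did not pass the expression filter of this comparison. Its 3 libraries of YEJG-M2 had 7.09, 6.86 and 5.75 CPM.

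Of the MMPs, *Mmp14*, the most abundant, was lower at 146 to 164 CPM against 190.1 to 213 (log2 fold change -0.40, SE 0.043, adjusted p = 2.63e-05). Within the chromosome 9 cluster *Mmp10* was lower, at 6.57 to 8.79 CPM against 9.13 to 23.9 (log2 fold change -1.09, SE 0.25, adjusted p = 0.00359). Its neighbour *Mmp3* was not called (log2 fold change 0.31, SE 0.40, adjusted p = 0.575): it was at 7.03 CPM in YEJG-FP, below the YEJH-derived range of 8.13 to 24.8, and at 29.3 and 23.4 in the YEJG lung lines. *Mmp12* and *Mmp13* were scarce and lower, with 2 reads in the YEJG-derived lines and 81 in the YEJH-derived lines for *Mmp12*, a ratio of 12.1-fold (95% interval 3.24 to 102). *Mmp13* was at 0.266 to 0.487 CPM against 0.245 to 1.46 (adjusted p = 0.0286), and it was no longer called without either YEJG lung line or within either prefix. The 4 promoters printed for this cluster carry the same AP-1 site, while 3 of the 4 genes were called lower and *Mmp3* was not called. Of all genes tested in the set 47.1% were lower, and of all genes 21.6%.

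*Mmp24* (MT5-MMP) was at 24.2 CPM in YEJG-FP and 5.97 and 9.44 in the YEJG lung lines, against 17.7 to 28.3 in the YEJH-derived lines (log2 fold change -0.88, SE 0.29, adjusted p = 0.0296). The MMPs that were higher were *Mmp11* (stromelysin-3), *Mmp28* (epilysin) and *Mmp19*. *Mmp28* was at 1.10, 3.63 and 2.77 CPM in YEJG-FP, YEJG-M1 and YEJG-M2 against 0.446 to 0.981 (log2 fold change 1.64, SE 0.32, adjusted p = 0.00126), and *Mmp19* at 0.268, 1.73 and 0.724 against 0.110 to 0.291 (log2 fold change 2.04, SE 0.40, adjusted p = 0.00131). Reads cannot be assigned without doubt where a gene of the set overlaps another coding gene in the annotation, as *Mmp11* (*Chchd10*), *Mmp12* (*Mmp1b*), *Mmp19* (*Tmem198b*), *Mmp24* (*Mmp24os1*), *Mmp28* (1700020L24Rik), *Adam9* (*Tm2d2*), *Adam17* (*Iah1*), *Ctsa* (*Neurl2* and *Pltp*), *Ctsb* (*Fdft1*), *Ctsd* (*Gm49369*) and *Ctsz* (*Nelfcd*) do. *Mmp11* was at 6.12, 11.5 and 10.4 CPM against 4.05 to 6.68 (log2 0.69 ± 0.16).

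Cathepsins were split. *Ctsh* (cathepsin H, an aminopeptidase) was at 32.8 CPM in parental YEJG, 31.6 in YEJG-FP, 9.67 in YEJG-M1 and 11.9 in YEJG-M2, with the YEJH-derived lines from 32.6 to 48.1 CPM with a median of 40.5 (log2 fold change -1.20, SE 0.26, adjusted p = 0.00239). *Ctsl* was at 461 to 605 CPM against 710.5 to 926 and *Ctsd* at 379 to 393 against 421 to 649.9, with log2 differences of -0.58 ± 0.088 and -0.46 ± 0.10. *Ctsa*, *Ctsb*, *Ctsz* and *Ctsc* were not called. Of 12 further lysosome genes, 2 were higher (*Tfeb*, 0.39 ± 0.13 log2, and *Tfe3*, 0.27 ± 0.063) and 1 lower (*Lamp1*, -0.13 ± 0.039), with a median of 0.14. Of the ADAMTS genes, *Adamts1* was lower (log2 -0.77 ± 0.19) and *Adamts9* higher, at 8.80, 26.4 and 13.2 CPM in YEJG-FP, YEJG-M1 and YEJG-M2 against 1.15 to 8.44 (adjusted p = 0.0131). Without YEJG-M1, *Adamts9* was no longer called (adjusted p = 0.103).

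The 12 genes not called were *Mmp3*, *Mmp9*, *Mmp15*, *Mmp16*, *Adam17*, *Adamts4*, *Adamts5*, *Plaur*, *Ctsa*, *Ctsb*, *Ctsz* and *Ctsc*. *Ctsb* (cathepsin B) was at 198 to 271 CPM over all derived lines, *Ctsa* (the carboxypeptidase that also protects lysosomal neuraminidase) at 57.2 to 80.02 and *Ctsz* (cathepsin Z) at 82.5 to 158. *Mmp15* (MT2-MMP) stayed at 0.317 to 0.970 CPM and *Adamts4*, an aggrecanase, at 3.79 to 11.6. *Mmp2*, *Mmp17* and *Adam19* were not tested by origin, and *Mmp17* was at 0.0400 to 0.338 CPM over the 15 lines.

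**Figure D2:**
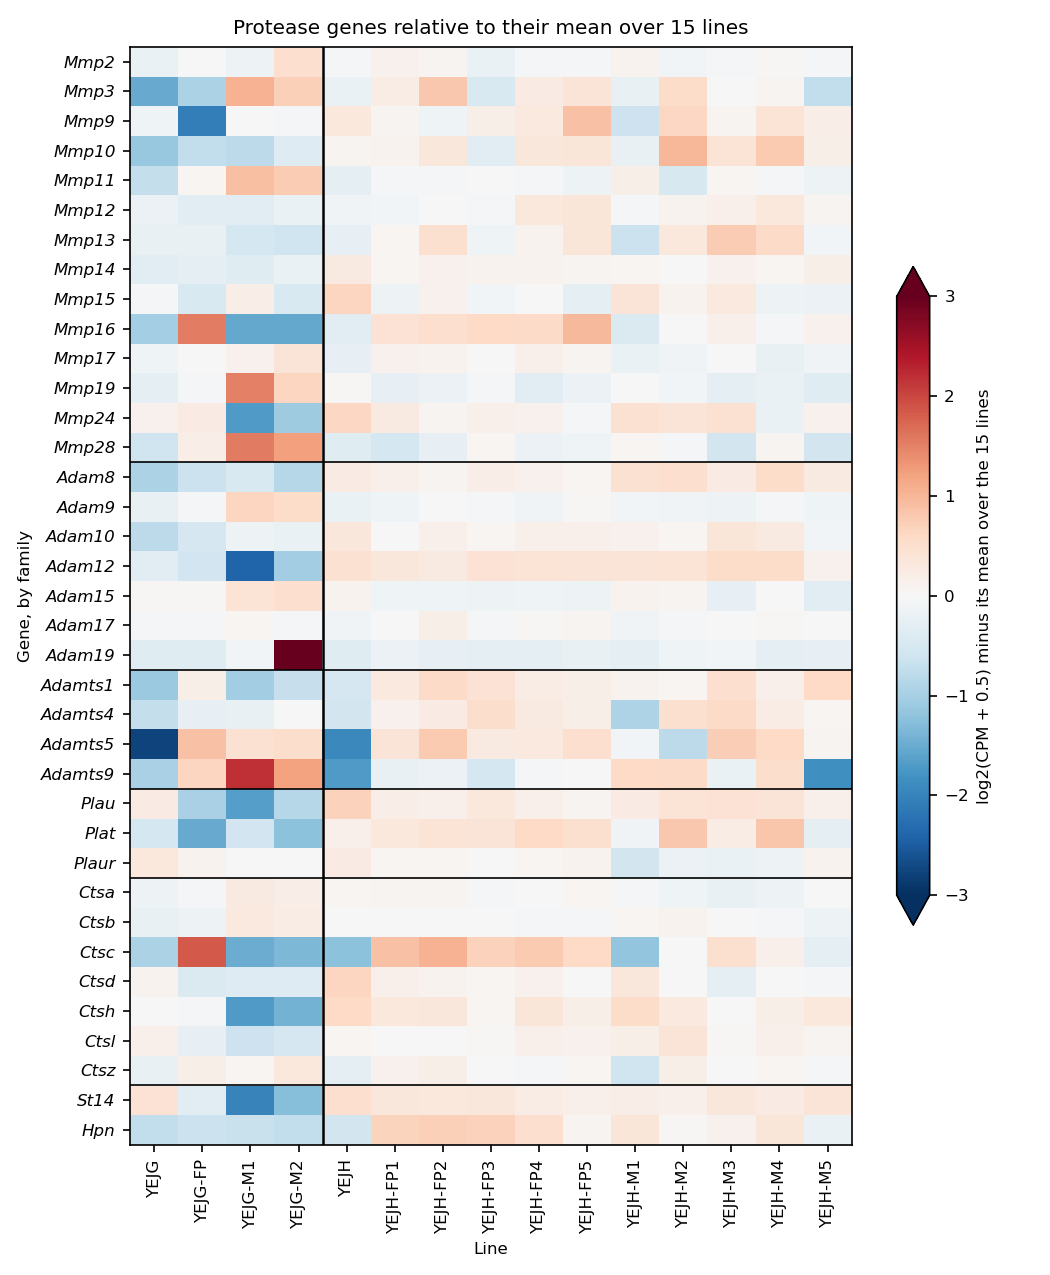
Heat map of the 37 protease genes (rows, by family) in the 15 lines (columns, YEJG lines left of the vertical line), coloured by log2(CPM + 0.5) minus the gene's mean over the 15 lines. The columns of YEJG-M1 and YEJG-M2 depart most from the rest, with *St14*, *Adam12*, *Plau*, *Ctsh* and *Mmp24* low, and *Adam19* is high in YEJG-M2.

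Both parental lines stayed outside that fit, and their levels give the order before transplantation, with 1 line of each and no test. Of the 20 called genes with more than 3 reads in both parental lines, 13 differed in the same direction between YEJG and YEJH as between their derivatives (65%), and of 6225 genes called among all genes 74.7% did. The same direction held for *Adam10* (85.7 CPM in YEJG and 186 in YEJH), *Adam8* (37.1 and 85.4) and *Mmp10* (5.04 and 12.5), which differed 2.17-, 2.30- and 2.47-fold between the parents. *St14* differed by 1.06-fold and *Adam9* by 1.02-fold between the parents. The 7 genes that ran the other way were *Mmp11*, *Mmp13*, *Mmp19*, *Mmp28*, *Adam9*, *Adam15* and *Ctsl*, of which *Mmp11* was at 3.35 CPM in YEJG and 4.75 in YEJH.

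Within lung lines alone, 2 from YEJG and 5 from YEJH, 23 of 33 genes tested were called, 15 lower and 8 higher in YEJG, against 34.5% of all 15892 genes (17.8% lower and 16.7% higher). In prefix A libraries alone 24 of 32 were called, beside 4763 of 13546 genes in all. In prefix B libraries alone 20 of 33 were called, beside 4559 of 14475. *Mmp16* had 0 reads in the YEJG lung lines and 199 in the YEJH lung lines, which with a floor of 3 reads over the group is at least 27.1-fold lower (adjusted p = 3.66e-04). *Ctsc* had 2 reads against 179, a ratio of 36.5-fold (95% interval 9.96 to 304), but its adjusted p rose from 0.0141 to 0.0994 without YEJG-M1. Among the genes with more reads the lowest in YEJG were *Adam12* (log2 fold change -2.03, SE 0.34, adjusted p = 0.00300), *Ctsh* (log2 fold change -1.90, SE 0.17, adjusted p = 2.23e-04), *St14* (log2 fold change -1.87, SE 0.18, adjusted p = 3.02e-04), *Mmp24* (log2 fold change -1.68, SE 0.24, adjusted p = 0.00163) and *Plau* (log2 fold change -1.53, SE 0.21, adjusted p = 0.00118). *Mmp3*, *Ctsa* and *Ctsb* were called higher here, with log2 differences of 0.90 ± 0.30, 0.33 ± 0.071 and 0.26 ± 0.076. Of the lysosome genes 5 of 12 were higher and 0 lower. Groups did not overlap for 25 of the 33 genes, 16 lower and 9 higher, beside 48.8% of all genes (24.4% in each direction).

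Markers of cell type moved with the same lines. The 5 luminal markers summed to 2694 to 3074.5 CPM in the YEJG lung lines and 4000.2 in YEJG-FP, against 5183 to 7031 in the YEJH-derived lines, and 4 of 4 tested were lower in YEJG-derived lines, led by *Cdh1* (-1.54 ± 0.27 log2) and *Epcam* (-1.51 ± 0.19). The 8 fibroblast markers summed to 77.3 to 88.5 CPM in the YEJG lung lines, 11.9 in YEJG-FP and 2.63 to 6.25 in YEJH-derived lines, and 5 of 5 tested were higher. *Pdgfra* and *Pdgfrb* made up most of that sum, while *Lum* and *Thy1* had no read and *Dcn* stayed at 0 to 0.210 CPM. The 4 basal markers, mostly *Krt14*, summed to 131 to 149 CPM in the YEJG lung lines, 497 in YEJG-FP and 210.2 to 488 in YEJH-derived lines; 0 of 3 tested were called by origin, and *Krt14* was called lower between lung lines (log2 fold change -1.16, SE 0.29, adjusted p = 0.0159). The leukocyte list summed to at most 6.69 CPM in any line, the endothelial list to at most 0.816 and the lung epithelial list to at most 0.0239. The part of these markers in the protease differences was not tested.

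Matriptase moved beside its partners. *Spint1* and *Spint2*, the hepatocyte growth factor activator inhibitors that bind matriptase, and *Prss8* (prostasin, a membrane protease that acts with it) were all lower in YEJG-derived lines, with log2 differences of -1.47 ± 0.25, -1.26 ± 0.23 and -1.31 ± 0.24, beside -1.36 ± 0.21 of *St14*. *Spint1* was at 86.6 CPM in parental YEJG, 50.04 in YEJG-FP, 13.9 in YEJG-M1 and 26.4 in YEJG-M2, and the YEJH-derived lines ranged from 64.4 to 91.2 CPM with a median of 84.8. *Prss8* was at 19.1 CPM in parental YEJG, 17.4 in YEJG-FP, 4.83 in YEJG-M1 and 7.07 in YEJG-M2, and the YEJH-derived lines ranged from 22.4 to 26.3 CPM with a median of 23.3. As with *St14*, YEJG-M1 was lowest, then YEJG-M2, then YEJG-FP.

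**Figure D3:**
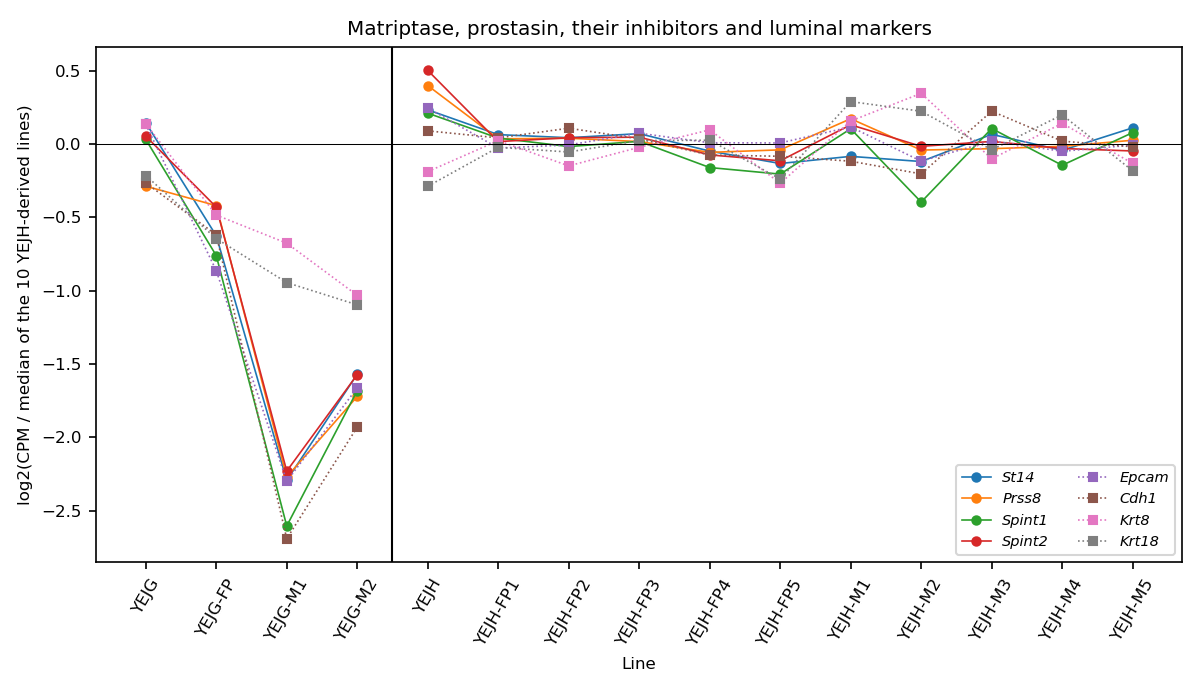
Level of *St14*, *Prss8*, *Spint1* and *Spint2* (circles, solid lines) and of the luminal markers *Epcam*, *Cdh1*, *Krt8* and *Krt18* (squares, dotted lines) in the 15 lines, as log2 of CPM over the median of the 10 YEJH-derived lines. All are lowest in YEJG-M1 or YEJG-M2, and the lines joining points only guide the eye.

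Of the 15 inhibitors listed, 13 were tested, of which 6 were lower and 2 higher in YEJG-derived lines (median log2 difference 0.14). *Serpinb2* (plasminogen activator inhibitor 2) was at 126, 24.9 and 30.4 CPM in YEJG-FP, YEJG-M1 and YEJG-M2 against 222 to 376 (log2 fold change -2.34, SE 0.36, adjusted p = 2.86e-04). *Serpinb5* (maspin) and *Cst6* (cystatin M) were lower (log2 -1.36 ± 0.24 and -0.59 ± 0.20), and *Serpinb6b* was higher (2.14 ± 0.51). The TIMPs, named here for their role, were abundant: *Timp1* was at 164 to 263 CPM over the derived lines, *Timp2* at 403 to 548 and *Timp3* at 353 to 829, and *Timp4* had no read. *Timp2* was called lower in YEJG-derived lines (log2 -0.24 ± 0.058), and *Timp1* and *Timp3* were not called by origin.

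Among AP-1 subunits, 4 of 7 were lower and 1 higher in YEJG-derived lines (median -0.32). *Fos* was at 8.63, 1.11 and 2.12 CPM in YEJG-FP, YEJG-M1 and YEJG-M2 against 10.4 to 19.97 (log2 fold change -2.09, SE 0.34, adjusted p = 4.34e-04), and *Fosb* differed by -1.78 ± 0.20 on the log2 scale. *Junb* and *Jund* were at -0.32 ± 0.089 and -0.43 ± 0.10, and *Fosl1* at 0.39 ± 0.10. Beside these, of the genes with the AP-1 site printed above, *Mmp10*, *Mmp12* and *Mmp13* were lower and *Mmp3* and *Plaur* not called.

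Of the 12 substrates of sheddases that were tested, 8 were lower and 1 higher in YEJG-derived lines (median -0.59), led by *Epgn* (epigen, an EGF receptor ligand; -1.88 ± 0.36 log2), *Cd44* (-1.35 ± 0.17), *Tgfa* (-1.08 ± 0.17), *Notch1* (-0.84 ± 0.12) and *Egfr* (-0.83 ± 0.20), while *Il6ra* was higher (1.15 ± 0.20). Of the 10 matrix substrates tested, 4 were lower and 3 higher. *Lamb3*, a laminin chain (-1.59 ± 0.21), and the basement membrane collagen *Col4a2* (-1.10 ± 0.25) were among the lower ones, and the fibrillar collagens *Col1a1*, *Col1a2* and *Col3a1*, which are also on the fibroblast list, were higher but at most 5.91 CPM (*Col3a1*). Of 38 further proteases of these families 14 were tested, with 3 higher and 2 lower. Besides *Prss8*, the lower one was *Tmprss2* (0.394 CPM in YEJG-FP, 0.0219 in YEJG-M1 and 0 in YEJG-M2, against 1.17 to 6.83), and the higher ones were *Adamts12* (2.44 ± 0.53), *Lgmn* (0.46 ± 0.12) and *Adamts10* (0.45 ± 0.14).

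Whether the difference between lung and fat pad lines itself depended on origin was tested with a site by origin term, which rests on the single fat pad line YEJG-FP. Of the 37 genes tested, 12 were called, against 13.3% of all 17042 genes (6.74% more positive and 6.61% more negative), 6 with a more negative and 6 with a more positive lung minus fat pad difference in YEJG. In prefix A libraries alone 13 of 34 were called, beside 1726 of 14402 genes in all. In prefix B libraries alone 10 of 35 were called, beside 1569 of 15705. *St14*, *Ctsh*, *Mmp24*, *Adamts1*, *Ctsc* and *Mmp16* dropped further from YEJG-FP to the YEJG lung lines than in YEJH, and *Adam9*, *Mmp3*, *Mmp9*, *Mmp11*, *Ctsa* and *Ctsb* went the other way. *Ctsh*, for instance, was at 31.6 CPM in YEJG-FP and 9.67 and 11.9 in the YEJG lung lines, while in YEJH it was at 34.2 to 41.9 in the fat pad and 32.6 to 48.1 in lung (difference of log2 differences -1.59, SE 0.22, adjusted p = 8.84e-04). *Adam9* had a difference of 0.72 (SE 0.09, adjusted p = 5.35e-04) and *Mmp24* one of -1.77 (SE 0.30, adjusted p = 0.00278). *Mmp9* (gelatinase B) was low in YEJG-FP alone (1.10 CPM) while parental YEJG (5.69), YEJG-M1 (6.24), YEJG-M2 (6.01) and the YEJH-derived lines (3.92 to 12.1) shared one range. *Mmp3*, *Mmp11* and *Adamts1* were no longer called without YEJG-M1. *Plau*, *Plat* and *Plaur* were not called, and *Plau* in YEJG-FP lay between its levels in the 2 YEJG lung lines. *Mmp11* was lost under 9 of 23 alternatives.

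**Figure D4:**
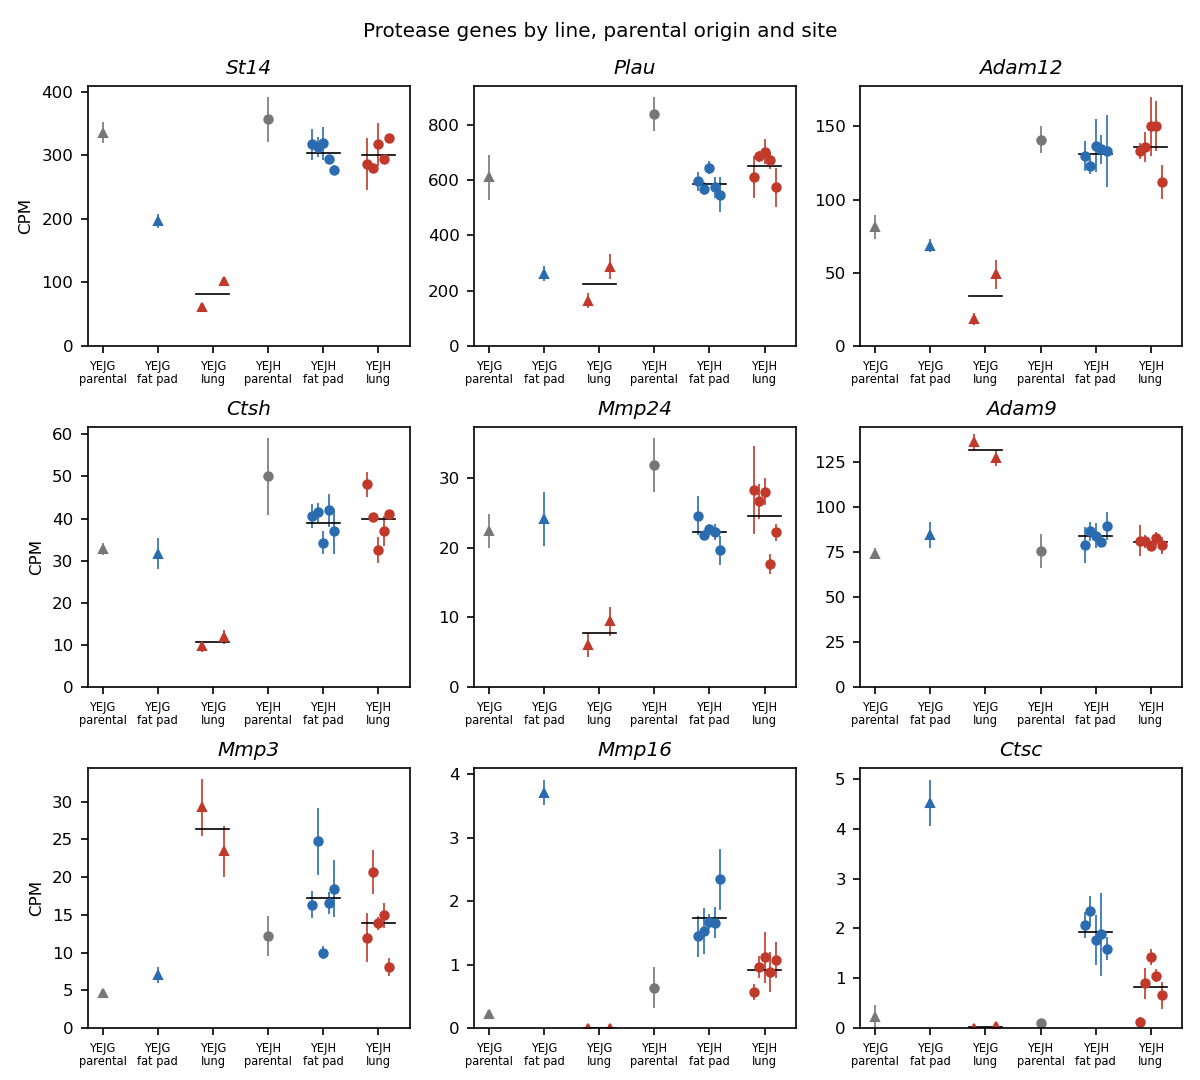
CPM of *St14*, *Plau*, *Adam12*, *Ctsh*, *Mmp24*, *Adam9*, *Mmp3*, *Mmp16* and *Ctsc* in each line by origin and site, on linear axes from 0; points are lines, error bars the SD of 3 repeat libraries, and short bars the mean of groups with over 1 line. *St14*, *Ctsh* and *Mmp24* drop in the YEJG lung lines while the YEJH fat pad and lung lines overlap.

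Transplanted and parental lines were compared last, as the 13 derived lines against the 2 parental lines with origin as a covariate. Of 34 genes tested, 3 were higher (*Adamts5*, *Adamts9*, *Hpn*) and 2 lower (*Plau*, *Ctsd*) in derived lines. An unadjusted p under 0.05 was found for 14 of them and for 3866 of all 16361 genes. Of all genes 7.77% were called (3.55% higher and 4.23% lower, or 4.46% and 3.07% with library totals in place of TMM). Within either prefix 4 of 33 genes were called, beside 939 of 13890 genes in all for prefix A and 685 of 15008 for prefix B. Markers moved in this comparison too: of the fibroblast list 3 of 5 tested were higher in derived lines (*Pdgfrb*, *Col3a1* and *Col1a2*), of the luminal list 1 of 4 lower (*Epcam*) and of the basal list 1 of 3 lower (*Krt14*). The basal sum was 1369 CPM in parental YEJG and 746 in parental YEJH, against 131 to 497 in derived lines, and the part of these markers was not tested. *Adamts5*, the major aggrecanase, was at 0.451 CPM in parental YEJG and 1.21 in parental YEJH, but at 11.5, 8.46 and 8.92 in YEJG-FP, YEJG-M1 and YEJG-M2. In YEJH-FP1 to YEJH-FP5 it was at 8.04, 10.8, 7.28, 7.41 and 8.68 CPM and in YEJH-M1 to YEJH-M5 at 5.62, 3.29, 10.4, 9.37 and 6.40. Every derived line of either origin and site was thus above both parents (log2 fold change 3.28, SE 0.47, adjusted p = 0.00161), and this call held under all 26 alternatives that could test it. *Adamts1*, which lies near it on chromosome 16, was at 151 and 231 CPM in the parents and at 156 to 495 in derived lines (log2 fold change 0.73, SE 0.23, adjusted p = 0.0700).

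*Plau* was at 609.8 CPM in parental YEJG, above its 3 derivatives, and at 840.0 in parental YEJH, above its 10 derivatives, the highest of which reached 703 CPM (log2 fold change -0.91, SE 0.18, adjusted p = 0.0106). *Ctsd* was at 551 and 795 CPM in the parents and at 379 to 649.9 in the derived lines (log2 fold change -0.54, SE 0.10, adjusted p = 0.00753). *Adamts9* (log2 fold change 2.33, SE 0.62, adjusted p = 0.0352) was at 2.50 and 1.33 CPM in the parents, and YEJH-M5 was below both at 1.15. *Hpn* had 3 reads in the parents and 241 in the derived lines, a ratio of 11.3-fold (95% interval 3.83 to 55.3), with an adjusted p of 0.0438 that was lost under 15 of 26 alternatives. Of those 241 reads 239 were in YEJH lines; parental YEJG had 0 reads and its 3 derivatives 2 in all, so the YEJG lines show no difference at this depth. With 1 line per parent these differences rest on single lines. Without parental YEJG only *Adamts5* was called, and *Plau* and *Ctsd* were lost there and with no covariate (adjusted p up to 0.698 for *Plau* and up to 0.320 for *Ctsd*). Over all genes 141 of 17067 were then called. Without parental YEJH 9 genes of the set were called, beside 2281 of all 17052, and without YEJG-FP 10, beside 2149 of all 16295. Derived and parental lines did not overlap for 4 of the 34 genes, 2 higher and 2 lower, and for 8.07% of all genes (4.55% higher and 3.53% lower).

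**Figure D5:**
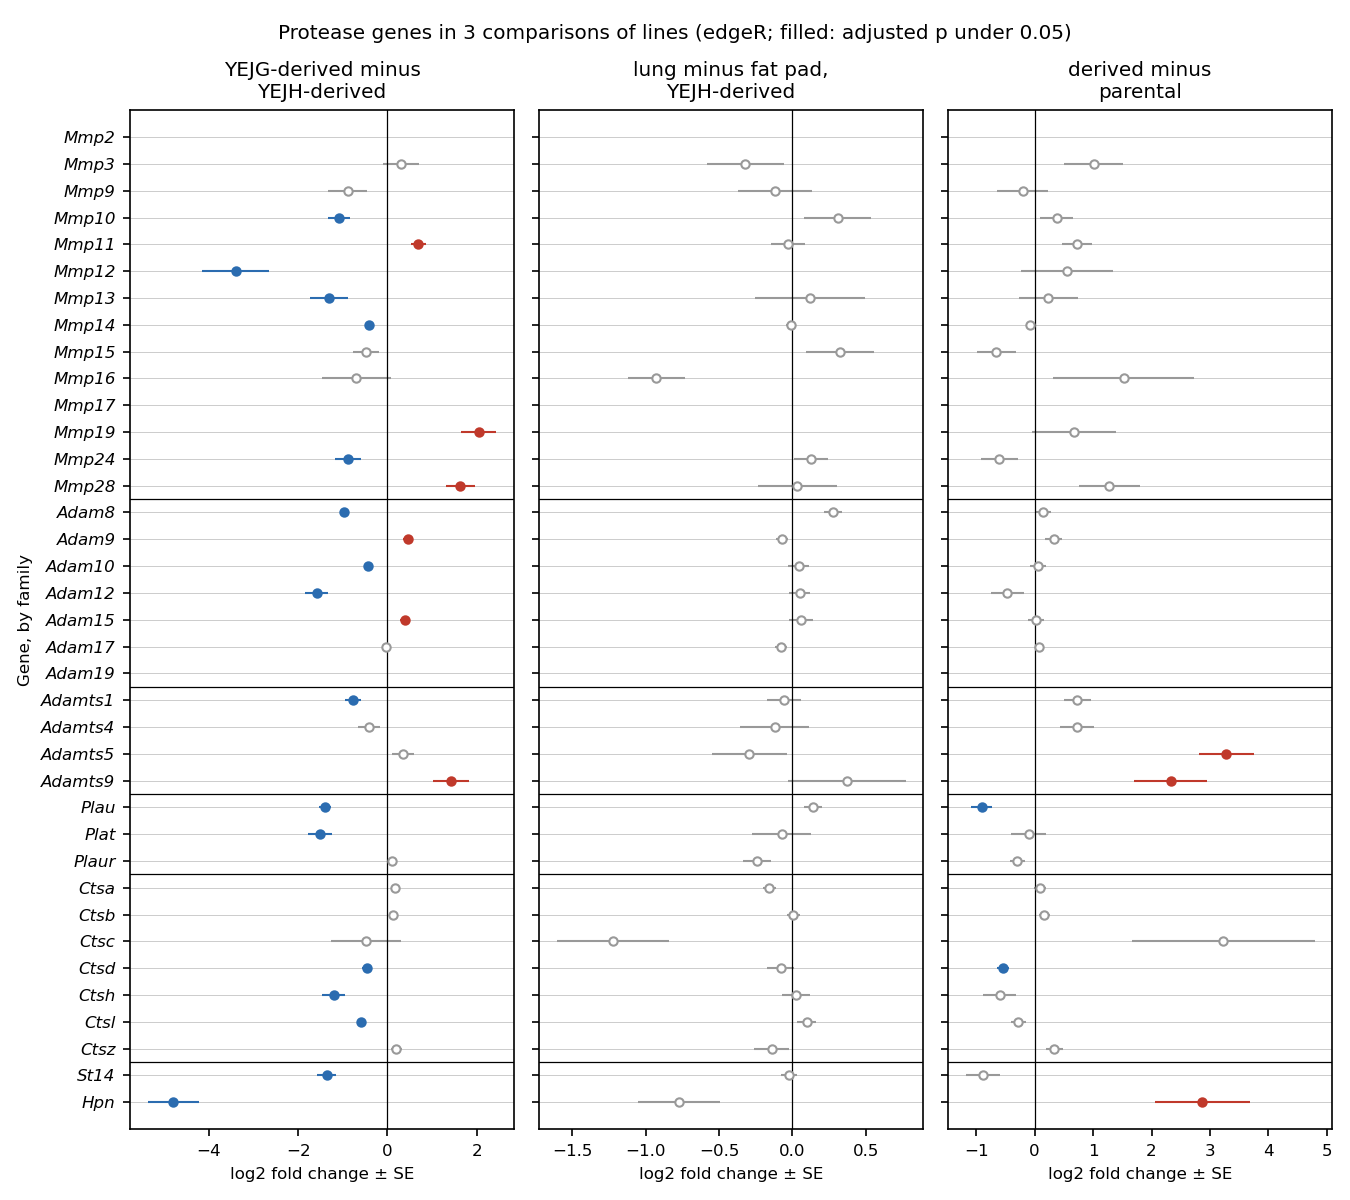
Log2 fold change with its SE (edgeR) of each protease gene between YEJG-derived and YEJH-derived lines, between lung and fat pad lines of YEJH, and between derived and parental lines; filled points passed an adjusted p of 0.05, red for higher and blue for lower, and each panel has its own axis. Origin has 22 filled points, site within YEJH 0 and derivation 5.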

How the data were processed

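RNA was measured in 45 libraries, 3 for each of 15 *PyMT*+ cell lines, from poly(A) RNA with the TruSeq RNA Library Prep kit v2, which does not mark strand. The deposited table holds raw counts per gene for 54838 mouse Ensembl genes. The submitters' processing notes list FastQC, HISAT2, SAMtools 1.2, HTSeq and the build name GRCh38, a human build, although the identifiers are of mouse; the annotation release is not given in the sources used here. Reads assigned to no gene (5 classes, 31.6% to 43.3% of a library) were left out. Of the identifiers 92.6% matched a symbol in the GRCm39 annotation, from which positions and canonical transcript lengths were taken.

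Groups were taken from the sample labels. The labels do not say whether the 3 libraries of a line came from separate cultures, so counts were summed per line, and p-values measure the spread between lines. edgeR 4.0.16 (TMM, filterByExpr, quasi-likelihood test, R 4.3.3) was fitted to all genes for each of 6 comparisons, with Benjamini-Hochberg adjustment over all genes tested and a threshold of 0.05. CPM values used TMM factors over 14339 genes. Site was a covariate of the origin comparison and origin of the derived against parental one. Alternatives were DESeq2 1.42.0, limma 3.58.1 on separate libraries, other scalings, filters and covariates, libraries of each name prefix alone, and each line or repeat left out. The scripts were tested on simulated data. Ratios of genes with 1 to 3 reads in a group have 95% exact intervals, and a group at 0 was set to a floor of 3 reads; both cover counting error only.

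The genes of the set and of the lists were chosen with earlier results of these data known. Named were all genes of the set called among the 10 largest changes of a comparison, or the 3 with the smallest p where none was called, with others by range or count. From the lists, genes called by origin were named, at most 6 per list, except 1 that is not reported here; the TIMPs, *Plg* and the marker genes were named after their values were seen.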

Additional observations from a re-analysis of the deposited data

Results flagged for a closer look

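Each of the 69 groups examined held 5 lines, either the YEJH fat pad or the YEJH lung lines for 1 gene. In 2 of them 1 line of the YEJH fat pad group stood apart by Dixon's criterion, where chance flags about 1 in 20 groups (3.45 expected). *Mmp11* was lowest in YEJH-FP5, at 5.23 CPM with the next line at 5.68, and *Mmp16* was highest in the same line, at 2.34 CPM with the next at 1.67.

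For 12 genes the lung minus fat pad difference in YEJG differed from that in YEJH by the interaction term (edgeR), which rests on 1 YEJG fat pad line. On the log2 scale it was more positive in YEJG for *Mmp9* (2.59), *Mmp3* (2.22), *Mmp11* (0.88), *Adam9* (0.72), *Ctsa* (0.46) and *Ctsb* (0.40). It was more negative for *Mmp24* (-1.77), *Ctsh* (-1.59), *St14* (-1.22) and *Adamts1* (-0.98). For *Mmp16* (-9.39) and *Ctsc* (-6.22), which had 0 and 2 reads in the YEJG lung lines, the fitted size depends on the prior count and is no bound.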

How the results depend on the processing

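For the genes recomputed one by one (the 10 largest called changes of a comparison at most, or the 3 with the smallest p), no log2 difference reversed its sign under the alternatives run; signs of other genes did change (by site 13 of 33 were positive, and 16 of 32 without YEJG-M1 or without YEJG-M2). The number called by site was 2 (*Ctsc* and *Mmp16*) with libraries kept apart in limma (77 of 12950 genes in all) and also with the repeat number as a replicate block in that fit (70 of 13317), and 0 with every line or repeat left out. By site within YEJH, DESeq2's Wald test gave 2, and the count was 0 to 1 with a line left out (1 without YEJH-M5). By origin it ranged from 20 to 27 with a line left out, within the lung lines from 18 to 24 and for the interaction from 11 to 16. For derived against parental lines, DESeq2's Wald test gave 8, a filter of at least 1 CPM in every line 3, no covariate 1, and leaving out a line 1 to 10. Of all genes, DESeq2's Wald test called 2027 of 16361 in that comparison, the 1 CPM filter 1018 of 11163 and no covariate 202 of 16361. The interaction without YEJG-FP could not be fitted. A replicate block by the number in the line names left 0 called by site and 0 within YEJH; these numbers did not pair lines (correlations of deviations from -0.226 to 0.153). By origin, limma on separate libraries called 25 (6500 of 13603 genes in all), and 26 with the repeat number as a block (6597 of 13878). With a line left out, the number by origin over all genes ran from 4901 of 16071 to 7208 of 16199. Within the lung lines it ran from 3123 of 16599 to 5544 of 15829 genes, and for the interaction from 1627 of 16861 to 2718 of 16988.

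Single lines decided some calls. *Adamts9* by origin was lost without YEJG-M1 (adjusted p = 0.103), *Mmp13* by origin under 5 alternatives (adjusted p up to 0.120), and *Ctsc* between lung lines without YEJG-M1 (adjusted p = 0.0994). Genes near 0, such as *Mmp12*, *Mmp16*, *Ctsc* and *Hpn*, are limited by depth.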

Other observations

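Genes in this paragraph were chosen after their values were seen. *Hexa*, a lysosomal hexosaminidase subunit, had no read in parental YEJG, 0.196 CPM in YEJG-FP and 23.8 and 22.7 CPM in YEJG-M1 and YEJG-M2. It was at 2.28 CPM in parental YEJH and at 3.44 to 9.52 in the YEJH-derived lines. *Acan*, the core protein of aggrecan, was at 88.5 and 63.4 CPM in YEJG and YEJG-FP, and at 0.0436 and 0.417 CPM in YEJG-M1 and YEJG-M2.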
